A study of Caenorhabditis elegans with 8 samples.

Results

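A set of 10 genes that control messenger RNA translation in the germ line of the nematode Caenorhabditis elegans were followed in newly hatched larvae that lacked one or both of a pair of histone-modifying enzymes. They were gld-1, gld-2, gld-3, fbf-1, fbf-2, cpb-1, cpb-3, daz-1, puf-8 and nos-2. Symbols of the RefSeq gene table of assembly WBcel235 were matched to the 50832 transcripts listed, and 9 of the 10 genes matched, with 14 transcripts between them, out of 39875 genes in all. fbf-2 matched no listed transcript and was not analysed here. Each gene was represented by the transcript whose base means added up to the most over the 3 tables, and every transcript of gld-2 was also examined.

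Total RNA came from pools of 200 to 250 starved whole first-stage (L1) larvae that had hatched overnight in M9 buffer at 21 to 22 °C, from parents grown on OP50 bacteria at 20 °C. The groups were spr-5 mutants with the allele by101 (I), met-2 mutants with the allele n4256 (III), the double mutant carrying both alleles, and the wild-type strain N2, with 2 libraries each. spr-5 encodes a demethylase of histone H3 lysine 4 and met-2 a methyltransferase of histone H3 lysine 9. Each pool is of whole animals, so a difference cannot be placed in a tissue, and a change in the number of cells of a type cannot be told apart from a change in RNA per cell. Each mutant was compared with the same N2 libraries, so the 3 comparisons are not independent. Nothing in the sources used here says that the libraries of a group came from separate cultures, so the p-values measure only the spread between these libraries, which may be technical.

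In the germ line many messages are made well before they are translated, and RNA-binding proteins hold them back or release them. GLD-1 and the FBF proteins repress their targets, while GLD-2 lengthens poly(A) tails and favours translation. The balance between these activities is known for its role in the choice between stem cell proliferation, meiosis, sperm and oocyte fates. In a hatched larva the germ line consists only of the primordial germ cells, and most of these regulators are best known from later stages.

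The values are the authors' own. A base mean is a read count scaled for library size and averaged over the 4 libraries of a comparison, and a log2 fold change is mutant over N2. Base means summed to between 4831475 and 5216667 scaled reads in the authors' deposited tables, which is the average scaled total of a library. Because each group has 2 libraries, the base mean is the average of the mutant and the N2 level, and a group level can be computed from it and the fold change. Such computed levels are given below as scaled reads. They carry the shrinkage of the fold change, have no error of their own, and stand on a separate scale in each table. Values of single libraries were not used here, so no spread between replicates can be shown, and the standard error (SE) of each fold change stands in for it. The targeted genes gave no check of the labels. The spr-5 transcript had a log2 change of 0.90 (SE 0.74) in spr-5 and 1.26 (SE 0.95) in the double mutant, and the met-2 transcript -0.43 (SE 0.69) in met-2 larvae and -0.45 (SE 0.97) in double-mutant larvae, per the authors' deposited tables. How far either allele removes its transcript was not tested.

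None of the 9 regulators passed the authors' adjusted p of 0.05 (DESeq2) in any mutant. The share of all transcripts with an adjusted p that passed it was 0.0101% in spr-5, 0.0647% in met-2 larvae and 0.709% in double-mutant larvae, per the authors' deposited tables. At an unadjusted p under 0.05, 0 of the 9 passed in spr-5 and 0 in met-2, where 0.871% and 0.901% of all transcripts did so with a higher level and 0.283% and 0.519% with a lower one. In the double mutant 2 of the 9 did, gld-1 and cpb-1, both with a higher level, and so did a gld-2 transcript other than the one that represents the gene. Among all transcripts, 1.74% were higher and 1.07% lower by that threshold, per the authors' deposited table for the double mutant. Among genes with a base mean of at least 10, 418 of 10411 were higher there and 225 lower. In spr-5 it was 234 and 77 of 11036, and in met-2 233 and 129 of 10653.

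The size of the differences was largest in the double mutant. A log2 fold change of at least 1 was seen for 5 of the 9 regulators there (gld-1, fbf-1, cpb-1, daz-1 and puf-8), and 8.34% of all genes, represented in the same way, reached it in the authors' deposited table. Among genes with a base mean of at least 10 that share was 14.7%. In spr-5 only puf-8 reached it, where 3.67% of all genes did, and in met-2 it was 0 of the 9, where 3.55% of all genes did, per the authors' deposited tables. Among genes with a base mean of at least 10, 858 of 11036 reached it in spr-5 and 719 of 10653 in met-2. The median log2 fold change of the 9 was 0.28 in spr-5, 0.30 in met-2 larvae and 1.14 in the double mutant, beside medians over all genes of 0.06, 0.01 and -0.18, from the authors' deposited tables. In each mutant 7 of the 9 had a fold change above 0, and 54.6%, 51% and 43% of all genes did, in the same order. Transcripts with few reads weigh on these backgrounds. Among genes with a base mean of at least 10, as 7 of the 9 had, the share above 0 was 49.3% in spr-5, 48.9% in met-2 larvae and 51.3% in double-mutant larvae, and the medians were -0.0091, -0.01 and 0.03, from the authors' deposited tables. The regulators were chosen with earlier results of these data known, so setting them beside all genes is a description and no test. No test of the double mutant against a single mutant was made. The median standard error of the 9 was 0.86 in spr-5, 0.80 in met-2 larvae and 1.04 in double-mutant larvae in the authors' deposited tables. Differences of about these sizes could not be resolved, and some larger ones were not resolved either. In the double mutant fbf-1 (1.20), daz-1 (1.14) and puf-8 (1.84) exceeded 1.04, yet none of them passed the unadjusted p threshold.

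**Figure D1:**
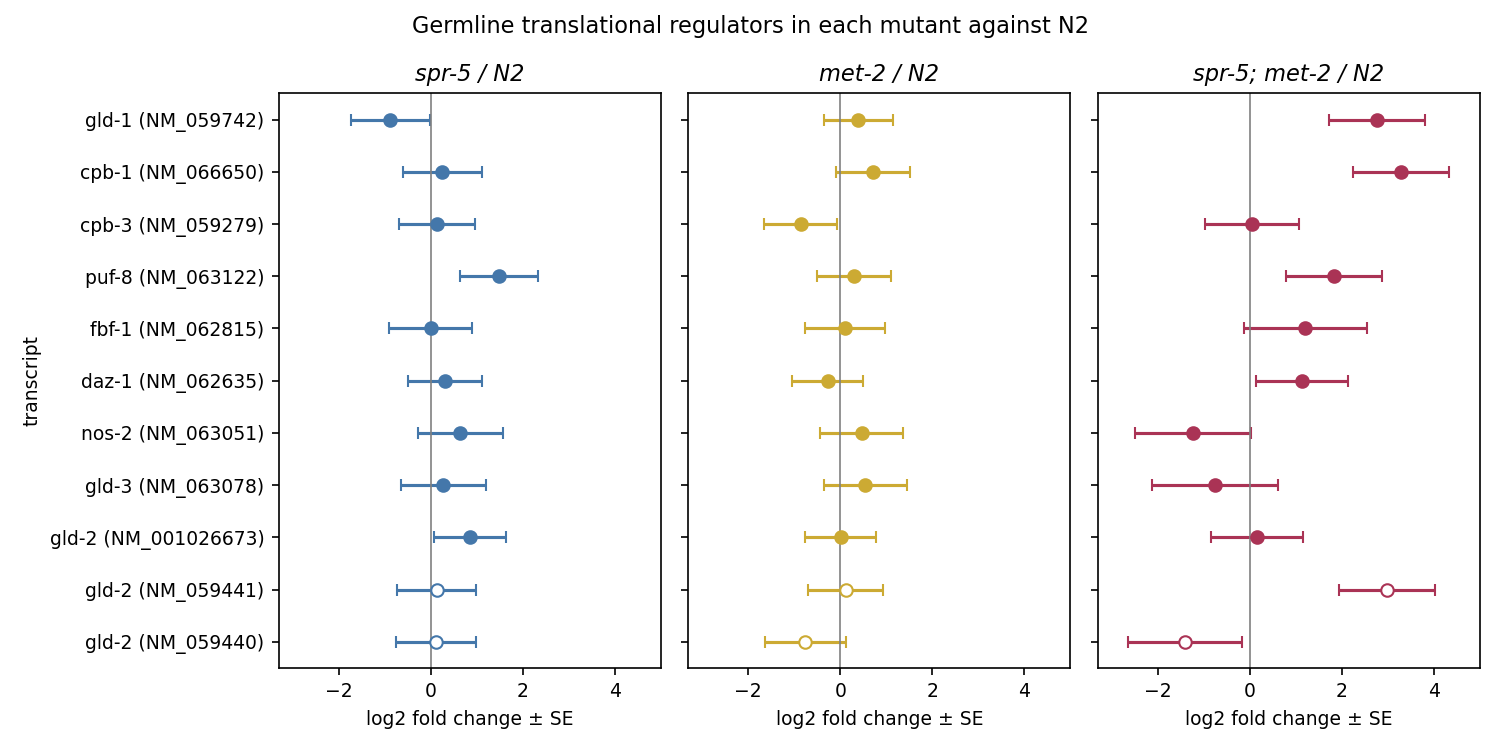
Log2 fold change of each regulator transcript in spr-5, met-2 and the double mutant (left to right) over N2, with bars for the authors' standard error. Filled points are the transcripts that represent their genes and open points the other gld-2 transcripts. In the double mutant gld-1 (2.77), cpb-1 (3.30) and the gld-2 transcript NM_059441 (2.98) lie farthest to the right.

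Among the repressors, gld-1 encodes a KH-domain protein of the STAR family that binds its targets' untranslated regions and is needed for meiotic progression and oocyte fate. Its transcript NM_059742 had base means of 62.6, 99.4 and 443 when spr-5, met-2 and double-mutant larvae were compared with N2, per the authors' deposited tables. Since the base mean averages both groups, the computed level was 773 scaled reads in the double mutant, against 114 in N2. The computed level was 44.1 in spr-5 against 81.1 in N2, and 113 in met-2 against 85.8 in N2. The N2 level was of a similar size in each comparison, but it comes from the same N2 libraries each time and is no separate evidence. Only the double mutant stood several times above the N2 level. The authors' deposited tables gave gld-1 a log2 change of -0.88 (SE 0.86, adjusted p 1.00) in spr-5 and 0.39 (SE 0.74, adjusted p 1.00) in met-2. For double-mutant larvae the authors' deposited table gave 2.77 (SE 1.04, p 0.00775, adjusted p 0.328). Of 10411 genes with a base mean of at least 10 there, 2.59% had a fold change as high or higher. The sign in spr-5 was opposite to that in the double mutant, but the value in spr-5 lay about 1 standard error from 0.

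cpb-1 and cpb-3 encode cytoplasmic polyadenylation element binding (CPEB) proteins, and cpb-1 is known to be required for spermatocytes to pass through meiosis. In the double mutant the computed level of cpb-1 (NM_066650) was 535 scaled reads, against 54.4 in N2. It was 48.2 in spr-5 against 40.4 in N2, and 67.4 in met-2 against 40.97 in N2. In the authors' deposited tables the log2 fold change of cpb-1 was 0.25 (SE 0.87, adjusted p 1.00) in spr-5, 0.72 (SE 0.80, adjusted p 1.00) in met-2 larvae and 3.30 (SE 1.04, p 0.00158, adjusted p 0.133) in the double mutant. This was the largest fold change among the 9, and 1.65% of genes with a base mean of at least 10 were as high or higher. cpb-3 (NM_059279), which resembles the CPEB proteins of vertebrate oocytes, had a fold change near 0 with a wide error in the double mutant. Base means of cpb-3 were 102, 65.1 and 86.1 for spr-5, met-2 and double-mutant larvae set against N2 in the authors' deposited tables. The log2 fold change of cpb-3 was 0.14 (SE 0.83) in spr-5, -0.85 (SE 0.79, p 0.283) in met-2 larvae and 0.05 (SE 1.03, p 0.959) in double-mutant larvae, per the authors' deposited tables. The difference between the CPEB genes was not tested.

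The PUF proteins bind a short sequence in the 3′ untranslated region of their targets. puf-8 encodes a PUF protein with roles in germ cell proliferation and in keeping sperm precursors committed to meiosis. Its transcript NM_063122 was the only one of the 9 with a log2 fold change above 1 in a single mutant. The computed level of puf-8 was 589 scaled reads in spr-5 against 211 in N2, 182 in met-2 against 148 in N2, and 589 in the double mutant against 165 in N2. The authors' deposited tables gave puf-8 a log2 change of 1.48 (SE 0.85, p 0.0818, adjusted p 1.00) in spr-5, 0.30 (SE 0.81, p 0.710) in met-2 larvae and 1.84 (SE 1.05, p 0.0800, adjusted p 1.00) in the double mutant. Neither of the larger values passed an unadjusted p of 0.05. As a position among genes with a base mean of at least 10, 3.16% were as high or higher in spr-5 and 6.07% in the double mutant.

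fbf-1 and fbf-2 encode the close paralogs named after binding the fem-3 message, which repress gld-1 and other meiotic messages in germ line stem cells. fbf-1 (NM_062815) had few reads, with base means of 7.12, 7.23 and 16.0 in the comparisons of spr-5, met-2 and double-mutant larvae in the authors' deposited tables. Its log2 fold change there was -0.0015 (SE 0.90) in spr-5, 0.10 (SE 0.87) in met-2 larvae and 1.20 (SE 1.34, p 0.368) in double-mutant larvae, per the authors' deposited tables. Reads that fit both paralogs could have been assigned to either or left out, so the level of fbf-1 is uncertain. In the annotation of assembly WBcel235 fbf-1 also overlaps H12I13.6 on the opposite strand, and that gene was listed at 0 in all 3 of the authors' deposited tables.

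daz-1 encodes the worm member of the Deleted in Azoospermia family and is needed for oogenesis. The computed levels of NM_062635 were 268 scaled reads in spr-5 against 217 in N2, 160 in met-2 against 192 in N2, and 452 in the double mutant against 205 in N2. The authors' deposited tables gave daz-1 a log2 change of 0.31 (SE 0.80), -0.27 (SE 0.77) and 1.14 (SE 1.01, p 0.260) in the same order. The value in the double mutant was close to 1 standard error from 0.

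nos-2 encodes a Nanos protein, a partner of PUF proteins that acts in the primordial germ cells of the embryo. Few reads were counted for it, with base means for NM_063051 of 9.20, 6.79 and 2.104 in the comparisons of spr-5, met-2 and double-mutant larvae in the authors' deposited tables. The log2 fold change of nos-2 was 0.65 (SE 0.92) in spr-5, 0.47 (SE 0.90) in met-2 larvae and -1.23 (SE 1.26, p 0.332) in double-mutant larvae, per the authors' deposited tables. No adjusted p was given for the last, as for other transcripts with few reads. nos-2 overlaps him-14, which encodes a meiotic recombination protein, on the opposite strand, and their reads cannot be told apart unless strand was used in counting. him-14 had a log2 change of 0.62 (SE 0.92) in spr-5, 0.03 (SE 0.84) in met-2 larvae and 2.20 (SE 1.22, p 0.0717) in double-mutant larvae in the authors' deposited tables, so in the double mutant the fold changes of the overlapping genes had opposite signs.

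**Figure D2:**
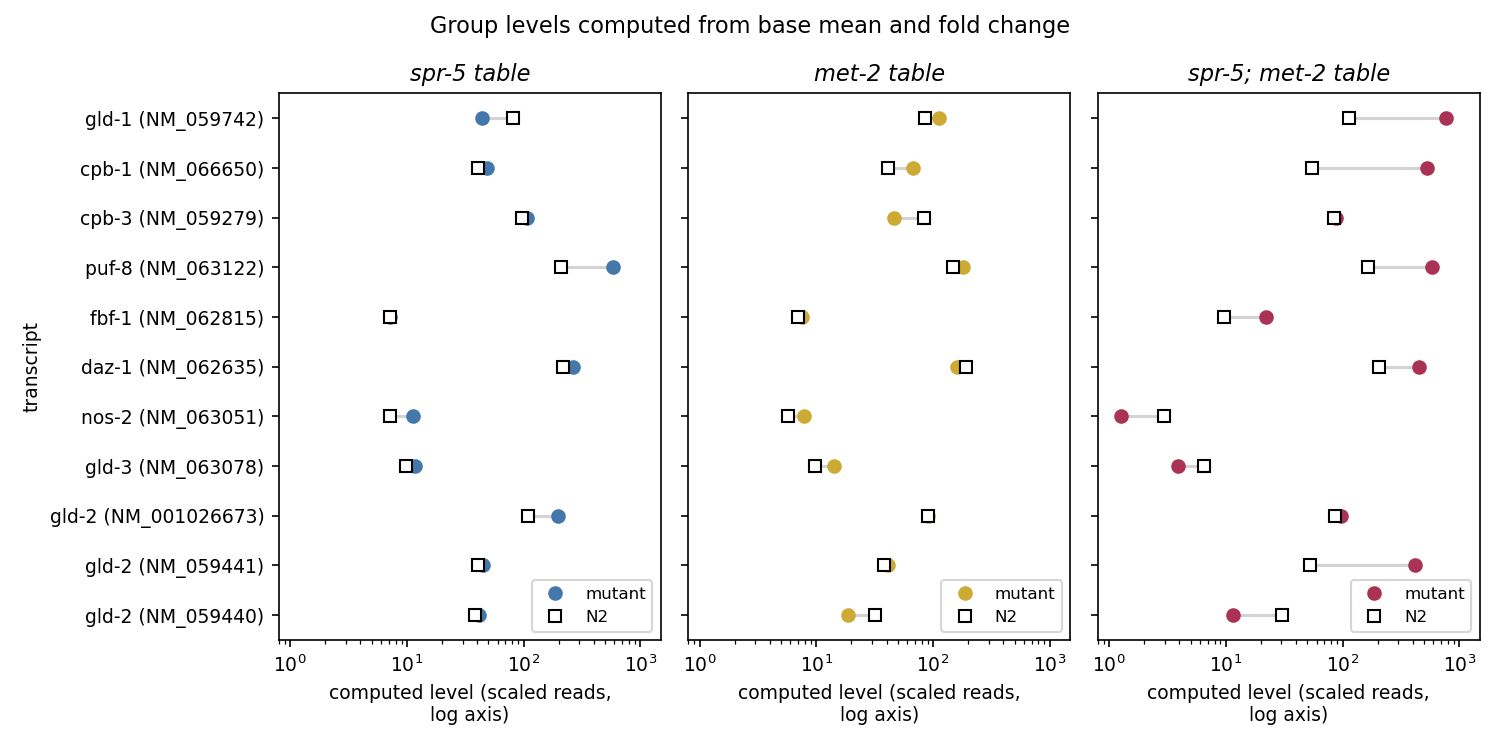
Group levels in scaled reads (log axis), computed from the base mean and the fold change, for each mutant (filled circles) and for N2 (open squares) in the table of spr-5, met-2 and the double mutant (left to right). In the double mutant gld-1 stood at 773 against 114 in N2 and cpb-1 at 535 against 54.4 in N2, while cpb-3 stood at 87.7 against 84.6.

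GLD-2 is a cytoplasmic poly(A) polymerase without an RNA-binding domain of its own, and GLD-3, a relative of Bicaudal-C, is one of the partners that activate it. gld-2 was listed with 5 transcripts, of which 3 had reads. The transcript with the largest sum of base means, NM_001026673 (335), hardly exceeded NM_059441 (319), while NM_059440 had 86.5, in sums over the authors' deposited tables. The remaining transcripts, NM_001313548 and NM_001313549, were listed at 0 throughout. The transcripts with reads had fold changes of different size and sign in the double mutant. For NM_001026673 of gld-2 the log2 fold change was 0.86 (SE 0.78, p 0.272) in spr-5, 0.01 (SE 0.76) in met-2 larvae and 0.16 (SE 0.99, p 0.873) in double-mutant larvae, per the authors' deposited tables. The authors' deposited tables gave gld-2 transcript NM_059441 0.13 (SE 0.85), 0.12 (SE 0.82) and 2.98 (SE 1.04, p 0.00413, adjusted p 0.235) in the same order. gld-2 transcript NM_059440 had 0.12 (SE 0.87) in spr-5, -0.76 (SE 0.88) in met-2 larvae and -1.40 (SE 1.23, p 0.256) in double-mutant larvae in the authors' deposited tables. Of these transcripts only NM_059441 passed an unadjusted p of 0.05 in the double mutant, and none passed the adjusted threshold.

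In computed levels, NM_059441 of gld-2 stood at 420 scaled reads in the double mutant, against 53.1 in N2, and made up 79.5% of the scaled reads of gld-2 in the double mutant, not adjusted for length, against 31.2% in N2. The share of NM_059441 was 15.8% in spr-5 against 21.7% in N2, and 27.4% in met-2 against 23.8% in N2. These N2 shares describe the same N2 libraries and yet differ between the comparisons, so a computed share is only approximate. Added over the 3 transcripts, the computed level of gld-2 was 528 scaled reads in the double mutant against 170.4 in N2, 283 in spr-5 against 188 in N2, and 151 in met-2 against 160.2 in N2. The range of log2 fold changes among the gld-2 transcripts in the double mutant, 4.38, was set beside other genes with 2 or more transcripts at a base mean of at least 20, a choice made after the values were seen. The lower end of the gld-2 range, NM_059440, had a base mean of 21.0 in the double mutant, just above that minimum. A range grows with the number of transcripts, and gld-2 has 3 above that minimum, so it is set here beside genes that also have 3. There were 9 such genes in the double mutant, gld-2 included, with a median range of 1.38, and gld-2 had the widest. In spr-5 the gld-2 range was 0.73, and 63.6% of 11 such genes had one as wide or wider. In met-2 it was 0.88, and 80% of 10 such genes did. Among all genes with 2 or more transcripts the median range in the double mutant was 0.65 over 75 genes, and gld-2 again had the widest, while 34.4% of 96 genes in spr-5 and 30.9% of 81 in met-2 reached its range. The transcripts share a gene and the same libraries, and the difference between their fold changes was not tested.

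**Figure D3:**
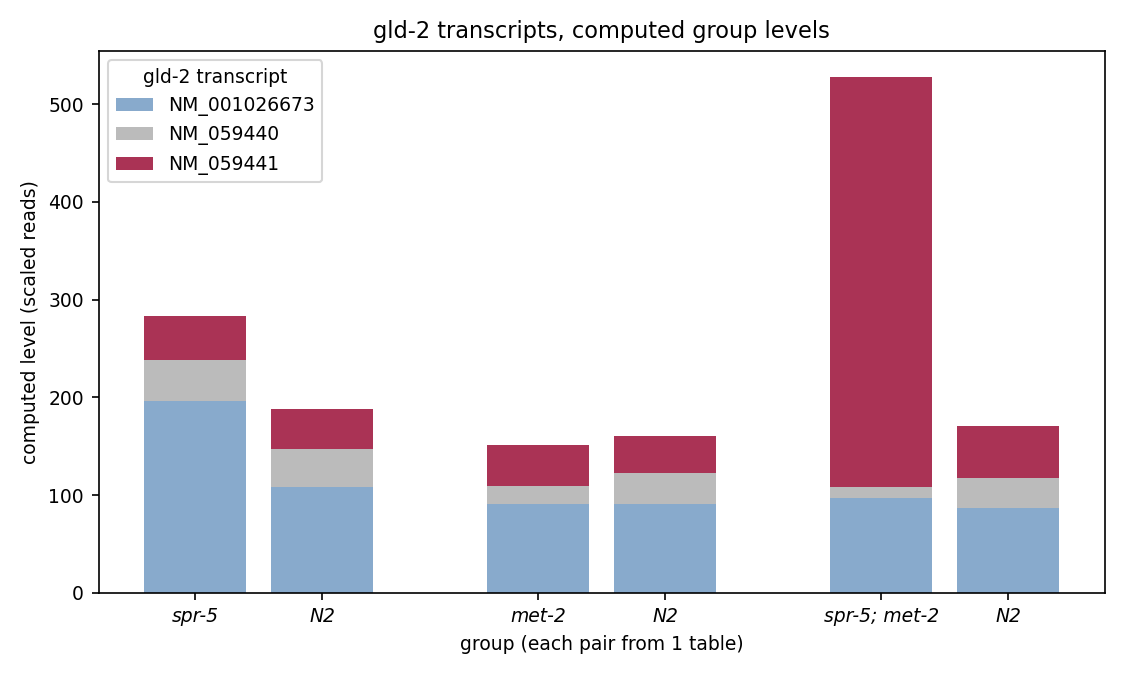
Computed levels of the 3 gld-2 transcripts with reads, stacked, in scaled reads, for each mutant and, to its right, N2 from the same table. NM_059441 made up 420 of 528 scaled reads in the double mutant and 53.1 of 170.4 in N2, while the part of NM_001026673 was similar in both.

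The counting bears on how these transcripts can be read. In the annotation of assembly WBcel235, gld-2 has 5 forms that share 1898 exon bases, and 3 of them (a, b and c) hold 1050, 777 and 807 exon bases found in no other form. The other forms, e and f, hold 0 such bases. The number of forms with bases of their own thus equals the number of transcripts with reads, but the sources used here do not pair accessions with forms. How reads that fit several transcripts were counted is not given in the sources used here. Among protein-coding genes, 27.4% of those with 2 or more listed transcripts had a representative at 0 in the table of the double mutant, against 8.10% of those with 1. How much of the length of each gld-2 transcript its base mean covers, and the part of this in the differences between transcripts, was not tested. gld-2 also overlaps klu-2 on the opposite strand. klu-2 had a log2 change of 0.49 (SE 0.97) and a base mean of 435 in double-mutant larvae in the authors' deposited table.

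gld-3, with 2 listed transcripts, also had few reads. NM_063078 of gld-3 had base means of 10.8, 12.01 and 5.22 and log2 fold changes of 0.28 (SE 0.93), 0.55 (SE 0.90) and -0.75 (SE 1.37, p 0.583) in spr-5, met-2 and double-mutant larvae, per the authors' deposited tables. The other transcript, NM_063079 of gld-3, had base means of 2.78, 1.63 and 1.48 there, in the authors' deposited tables. Every fold change of gld-3 lay within 1 standard error of 0, and a difference of that size was not detectable at this depth.

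**Figure D4:**
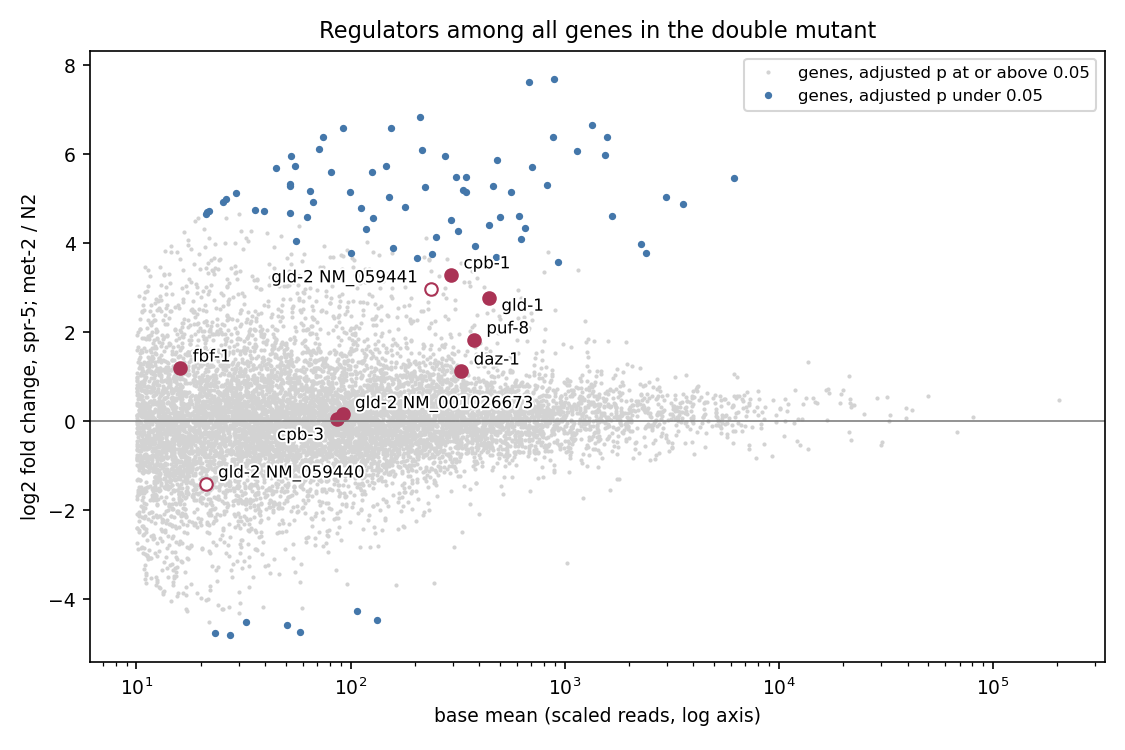
Log2 fold change over N2 against base mean (log axis) in the double mutant for 10411 genes with a base mean of at least 10 (grey, blue where the adjusted p is under 0.05) and the regulator transcripts above that minimum (red, open for the other gld-2 transcripts). cpb-1, gld-1 and gld-2 NM_059441 lie among the higher grey points and below the smallest called change (3.57).

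Other genes of germ line translational control were counted from a list of 32, of which 29 matched and 24 had a fold change. They include further PUF and Nanos proteins, the poly(A) polymerase gld-4, and the zinc-finger proteins of the oocyte and early embryo. None passed the adjusted p in any mutant. At an unadjusted p under 0.05, 0 were higher and 0 lower in spr-5, 0 higher and 1 lower in met-2, and 4 higher and 1 lower in double-mutant larvae, per the authors' deposited tables. Over all transcripts those shares were 0.871% and 0.283% in spr-5, 0.901% and 0.519% in met-2 larvae, and 1.74% and 1.07% in double-mutant larvae, and the same shares stand beside the lists that follow. Transcripts with few reads weigh on these shares too, and the counts at a base mean of at least 10 are given above. The median log2 fold changes were 0.02, -0.09 and 0.22 in the same order. By the rule for naming, mex-5, which encodes a zinc-finger protein of embryonic polarity, had a log2 change of 2.77 (SE 0.99, p 0.00512, adjusted p 0.266) in the double mutant, 1.15 (SE 0.81) in spr-5 and 0.71 (SE 0.71) in met-2 larvae, per the authors' deposited tables. puf-7, an oocyte PUF gene whose value is uncertain because puf-6 is a near-identical copy, had 3.04 (SE 1.13, p 0.00736, adjusted p 0.321) in double-mutant larvae in the authors' deposited table. In the single mutants the authors' deposited tables gave puf-7 0.91 (SE 0.93) in spr-5 and 1.52 (SE 0.88, p 0.0839) in met-2.

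Deadenylases and other subunits of their complexes, which act in shortening poly(A) tails and so oppose GLD-2, were represented by 9 matched genes of 11. None passed the adjusted p, and at an unadjusted p under 0.05 it was 0 in every mutant, in the authors' deposited tables. Their median log2 fold change was 0.15 in spr-5, -0.0071 in met-2 larvae and 0.0093 in the double mutant, where 8 of the 9 had a fold change.

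Messages known as targets of GLD-1 or FBF were counted from a list of 24, all matched, of which 18 had a fold change in the double mutant and 6 are also on the list of other regulators. None passed the adjusted p. In the double mutant 4 were higher and 0 lower by the unadjusted p of 0.05, where 1.74% and 1.07% of all transcripts were. Of the 4, puf-5 and oma-2 were already counted as higher on the list of other regulators. The median log2 change in the double mutant was 0.28. In spr-5 it was 1 higher and in met-2 0, with medians of 0.19 and 0.08, from the authors' deposited tables. htp-1, which encodes a meiotic axis protein, had 3.46 (SE 1.09, p 0.00149, adjusted p 0.127) in the double mutant, 0.19 (SE 0.89) in spr-5 and 0.31 (SE 0.90) in met-2 in the authors' deposited tables. Its level is uncertain where reads also fit the close paralog htp-2. puf-5, an oocyte PUF gene, had 2.30 (SE 1.06, p 0.0303, adjusted p 0.664) in the double mutant, 0.89 (SE 0.83) in spr-5 and -0.13 (SE 0.85) in met-2 larvae, per the authors' deposited tables. These values are levels of RNA and say nothing of translation.

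**Figure D5:**
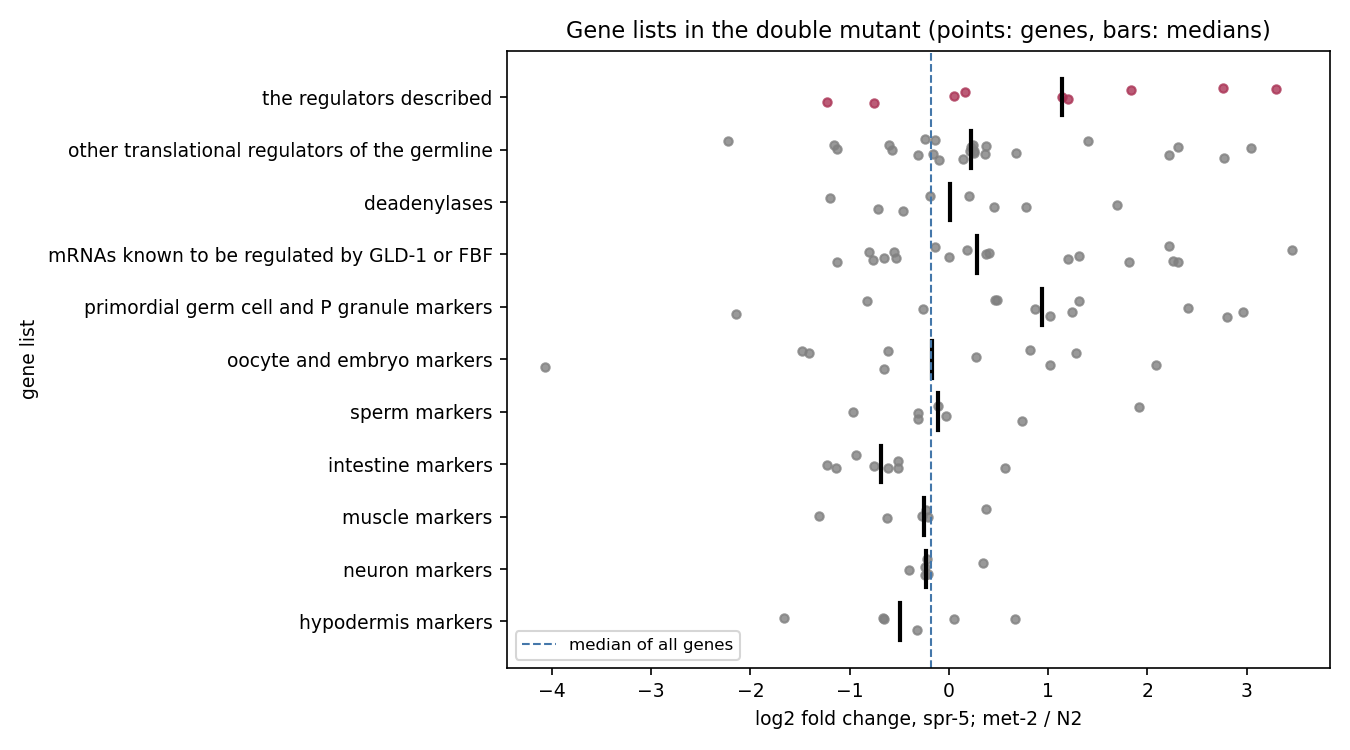
Log2 fold change over N2 in the double mutant for the genes of each list (points, spread vertically at random) with the list's median (black bar) and the median of all genes (dashed, -0.18). The regulators have a median of 1.14 and the primordial germ cell and P granule markers one of 0.94, while the intestine markers have one of -0.68.

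Markers of germ cells and of other cell types were set beside these values. Of 12 primordial germ cell and P granule markers, 0 passed the adjusted p in any mutant. In the double mutant 3 were higher at an unadjusted p under 0.05, beside 1.74% of all transcripts, and 6 had a log2 fold change of at least 1, beside 8.34% of all genes, per the authors' deposited table. Their median log2 fold change there was 0.94, with 9 above 0 and 3 below it. Their summed computed level was 1728 scaled reads in the double mutant against 418 in N2, 578 in spr-5 against 433 in N2, and 699 in met-2 against 391 in N2. The gene glh-1 made up much of these sums, with 1076 scaled reads in the double mutant against 138 in N2, and 416 in met-2 against 130 in N2. The other 11 markers added up to 652 in the double mutant against 280 in N2, 379 in spr-5 against 309 in N2, and 282 in met-2 against 261 in N2, a split made after the values were seen. glh-1, a germ line RNA helicase of P granules, had a log2 change of 2.96 (SE 0.97, p 0.00238, adjusted p 0.168) in the double mutant, 0.68 (SE 0.82) in spr-5 and 1.68 (SE 0.72, p 0.0198, adjusted p 1.00) in met-2 larvae, per the authors' deposited tables. csr-1, an Argonaute of the germ line, had 2.80 (SE 1.22, p 0.0214, adjusted p 0.573), 0.85 (SE 0.93) and 0.94 (SE 0.91) in the same order in the authors' deposited tables. The defining markers pgl-1 and pgl-3 had almost no reads, with base means of 0.817 and 1.36 in the authors' deposited table for the double mutant. Such a count does not show that a gene was silent, since how reads that fit several transcripts were counted is not given. The markers with a fold change below 0 in the double mutant were pgl-1 (-0.82, SE 1.17), iff-1 (-0.26, SE 1.20) and meg-1 (-2.14, SE 1.36), in the authors' deposited table. meg-1 acts in P granules of the embryo. iff-1 and meg-1 also had few reads there, with base means of 1.63 and 6.27. Thus 3 of the 12 markers shared with gld-1, cpb-1 and the gld-2 transcript a higher level by the unadjusted p in the double mutant, and their part in those values was not tested.

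Oocyte and embryo markers were also counted, and whether older animals were in the pools was not tested. In the double mutant 1 gene of 10 was higher and 1 lower by the unadjusted p of 0.05, where 1.74% and 1.07% of all transcripts were. Their median log2 change in the double mutant was -0.17, in the authors' deposited table. cbd-1, an eggshell gene, had 2.09 (SE 0.95, p 0.0276, adjusted p 0.639) there, and perm-4, which acts in the permeability barrier of the egg, -4.07 (SE 1.20, p 0.000717, adjusted p 0.0758), per the authors' deposited table. In spr-5 and met-2 cbd-1 had -0.17 (SE 0.77) and 0.58 (SE 0.70) and perm-4 -1.93 (SE 0.89, p 0.0308) and -0.69 (SE 0.83) in the authors' deposited tables. The yolk receptor gene rme-2 had a base mean of 0.545 in that of the double mutant. The summed computed level of these markers was 1585 scaled reads in the double mutant against 709 in N2. Of this cbd-1 alone made up 1100 against 259 in N2, and the other 9 added up to 485 in the double mutant against 450.4 in N2. Of the sperm markers, 9 of 10 matched and none passed an unadjusted p of 0.05 in any mutant. Their medians were 0.30, 0.14 and -0.11 in spr-5, met-2 and double-mutant larvae in the authors' deposited tables. In double-mutant larvae 7 sperm markers had a fold change and 2 a base mean of at least 10. The oocyte and embryo markers had medians of -0.10 in spr-5 and 0.09 in met-2. Somatic markers were represented by 8 genes of intestine, 7 of muscle, 7 of neurons and 8 of hypodermis. None passed the adjusted p, and at an unadjusted p under 0.05 only 1 did in any mutant, a hypodermis marker that was higher in met-2 larvae, per the authors' deposited tables. Their medians in the double mutant were -0.68 for intestine, -0.25 for muscle, -0.23 for neurons and -0.49 for hypodermis, from the authors' deposited table. A fold change was given there for 8, 6, 6 and 6 of them, in the same order. Only 8, 5, 4 and 2 had a base mean of at least 10, and as many had an adjusted p, so the hypodermis median rests mostly on scarce transcripts. In spr-5 and met-2 these medians were -0.35 and 0.19 for intestine, -0.13 and 0.04 for muscle, 0.03 and 0.13 for neurons, and 0.11 and 1.07 for hypodermis.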

How the data were processed

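Per the submitters' processing notes, the data were handled with FastQC, Trimmomatic, featureCounts and DESeq2 (version 2.11.40.2), with genome build ce10. Neither their settings nor the aligner, annotation or strand handling are given in the sources used here. The authors deposited 3 tables, 1 for each mutant against N2. Each holds a base mean (a signal of scaled counts), a log2 fold change with its standard error on the log2 scale, the Wald score (the deposited fold change divided by its standard error) and the deposited p-value and adjusted p-value. The standard error of a transcript with a base mean under 5 did not exceed 0.88, 0.88 and 1.37 in spr-5, met-2 and the double mutant, so fold changes of scarce transcripts are shrunken towards 0. The lowest base means above 0 that recurred, 0.219, 0.233 and 0.272, give the scale of 1 read in 1 library. Total reads per library were not derived here.

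No coordinates are printed, since the annotation used for names and overlaps (WBcel235) differs from ce10. Of the listed transcripts, 46074 (90.6%) matched a symbol. A call is an adjusted p under 0.05 in the deposited table. Medians, counts and computed levels were calculated with Python 3.11.15, pandas 2.3.3 and numpy 2.4.6, and adjustment and transcript choice were tested on simulated data. The members and lists were chosen with earlier results of these data known. Named genes are all members, and of each other list those called or, failing that, the 2 with the smallest unadjusted p under 0.05 in the double mutant, and the 5 genes closest to gld-1 in their 3 fold changes. pgl-1, pgl-3, iff-1, meg-1, puf-3, puf-6, oma-2, rme-2, klu-2, him-14 and H12I13.6 were added after values were seen.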

Additional observations from a re-analysis of the deposited data

How the results depend on the processing

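No paired analysis was possible because the tables analysed give comparisons of groups and carry no replicate numbers. For the same reason the planned removal of each replicate in turn was not run. An adjusted p under 0.01, Benjamini-Hochberg adjustment recomputed over every p-value or over those above a base mean of 10, and the choice of each gene's most abundant transcript table by table each left 0 of the 9 regulators called in every mutant. The lowest adjusted p of any member transcript under the recomputed adjustments was 0.130. At an unadjusted p under 0.05 the count in the double mutant was 2, and 3 when each gene's most abundant transcript there is used, which takes NM_059441 for gld-2. That choice is not independent of the fold change. The computed level of NM_059441 was 420 scaled reads in the double mutant but 53.1 in N2, where NM_001026673 stood higher, at 86.7. The median log2 fold change of the 9 regulators in the double mutant was 1.14, and between 1.05 and 1.20 under the alternatives. The settings that gave 1.20 also depend on the mutant libraries. The base mean minimum of 10 left out gld-3 and nos-2, both below 0, and kept fbf-1, whose computed level in N2 was 9.68. The others took NM_059441 for gld-2. Subtracting the median of the more abundant transcripts (0.08, base means from 50) turns the sign of cpb-3 there, which lay near 0. The smallest called change was 3.57 in the double mutant on the log2 scale, above that of any member, so changes of the size seen here lie below what was called with 2 libraries a group.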

Other observations

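Among 5450 named genes whose base mean reached 50 in every table, the 5 whose 3 log2 fold changes lay closest to those of gld-1 were F58F9.4, dos-3, lips-15, tag-343 and pals-32. Likeness was the Euclidean distance over the 3 comparisons, which share N2. It was 0.65 for F58F9.4 and 0.84 for pals-32, beside a median of 2.98 over all genes compared. In the authors' deposited tables F58F9.4 had a log2 change of -0.62 (SE 0.80) in spr-5, 0.25 (SE 0.73) in met-2 larvae and 3.35 (SE 1.01, adjusted p 0.0903) in the double mutant. pals-32, of a multigene family whose members may share reads, had -1.16 (SE 0.87), -0.06 (SE 0.81) and 3.41 (SE 1.05, adjusted p 0.109) in the same order in the authors' deposited tables. For dos-3, lips-15 and tag-343 the authors' deposited table for the double mutant gave 2.108 (SE 1.06), 2.49 (SE 0.99) and 2.43 (SE 1.09), none past the adjusted p of 0.05. The distances have no error of their own, and their order was not tested.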
